A study of Mus musculus with 9 samples.

Results

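Fibroblast growth factors (FGFs) are secreted ligands that bind, together with heparan sulfate chains of the cell surface, to receptor tyrosine kinases of the FGFR family. The activated receptors phosphorylate the docking protein FRS2, which relays the signal to Ras and ERK, and ERK in turn induces inhibitors that dampen the same pathway. FGF receptor signaling is needed for GnRH neurons to form, and loss-of-function variants of human FGFR1 cause GnRH deficiency. The 10 FGF genes described here were chosen by symbol, out of 37411 genes in the deposited table: the receptors Fgfr1, Fgfr2, Fgfr3 and Fgfr4, the co-receptor Klb, the docking protein Frs2, and the FGF family genes Fgf2, Fgf9, Fgf13 and Fgf18. These members were chosen with earlier results of these data known.

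The genes were measured by RNA-Seq in GT1-7-OX1 cells, a mouse hypothalamic line of GnRH neurons in which all 9 cultures carried a stably incorporated human OX1 orexin receptor, delivered by lentivirus. Fresh medium held 200 nM orexin A (OxA) for 8 h in 3 cultures, 200 nM OxA for 3 h in 3 cultures, or vehicle (water) for 8 h in 3 cultures. No vehicle was collected at 3 h, so at 3 h the effect of OxA and the shorter time after the medium change cannot be told apart. Both OxA groups were set against the same 3 vehicle cultures. The receptor in these cells is a transgene in a transduced line, and the flasks of a group were treated in repeats of the experiment, so the p-values measure the spread between repeats of this 1 line.

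Each culture gave 16217786 to 20445364 counts assigned to genes. Of the 8 neuronal markers examined, 6 were at 2 TPM (a level scaled to gene length and to the library) or more in every group, led by Gnrh1 at 2986 ± 85.3 TPM in OxA 8 h cells, 3870 ± 119 TPM in OxA 3 h cells and 3924 ± 304 TPM in vehicle cells (SD, n = 3 each), while Snap25 and Stmn2 were near 0 (means of at most 0.211 TPM). Among markers of other cell types, the summed level of 5 endothelial genes was 5.95 to 6.05 TPM in OxA 8 h cells, 8.10 to 8.71 TPM in OxA 3 h cells and 7.51 to 8.35 TPM in vehicle cells, with 1 of the 5 (Kdr) at 2 TPM or more. The 7 astrocyte genes summed to 5.53 to 6.47, 4.95 to 5.28 and 4.97 to 6.19 TPM in the OxA 8 h, OxA 3 h and vehicle cells, with Aqp4 at 0 in all 9 cultures and 1 of the 7 at 2 TPM or more in each group, Gja1 (3.01 ± 0.376 TPM in OxA 8 h, 2.92 ± 0.207 TPM in OxA 3 h and 2.25 ± 0.251 TPM in vehicle cells). The 7 oligodendrocyte genes summed to 2.14 to 2.51 TPM in OxA 8 h cells, 1.16 to 1.78 TPM in OxA 3 h cells and 2.48 to 2.76 TPM in vehicle cells. The 6 microglia genes summed to 8.70 to 10.2, 8.55 to 9.89 and 8.68 to 9.54 TPM in the OxA 8 h, OxA 3 h and vehicle cells, with Ptprc at a mean of 0.00867 TPM or less, and 2 of the 6 at 2 TPM or more: Csf1r was higher in OxA cells (5.88 ± 0.482 TPM after 8 h, 4.61 ± 0.164 TPM after 3 h and 3.11 ± 0.0843 TPM in vehicle) and Tmem119 lower (means of 2.69 TPM after 8 h, 3.91 TPM after 3 h and 5.22 TPM in vehicle). The 5 fibroblast genes had the largest of these sums, at 31.2 to 37.1 TPM in OxA 8 h cells, 32.1 to 33.2 TPM in OxA 3 h cells and 33.1 to 40.3 TPM in vehicle cells, mostly from Col1a2. The part of these levels in the results that follow was not tested, and in bulk RNA fewer cells of a type and less RNA per cell cannot be told apart.

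The promoters of the FGF members are shown for the letters that distinguish them, since Fgf2 and Fgfr3 share a match that most promoters lack. RefSeq promoter windows (GRCm38.p6, 250 bases before to 50 after a start) were given for 9 of the 10 members, in 13 windows, and none for Fgfr1. The core motif of the EGR zinc finger factors (GCGTGGG, either strand) occurred in 5.04% of 32851 such windows of all genes, in the single Fgf2 window and in both Fgfr3 windows. The Sp/KLF box (GGGCGG, either strand) occurred in 35.7% of windows, in Fgf2, Fgfr3, Fgfr4, Fgf18, Frs2 and in 2 of the 4 Fgf13 windows. The Fgfr2 window held neither of these and had 1 MYC E-box (CACGTG, in 7.15% of windows). The AP-1 motif (TGANTCA, in 7.81% of windows) occurred once, in 1 Fgf13 window, and the CRE core (TGACGT, in 7.51%) once, in Fgf9. None of these matches overlapped a match of another motif (0 overlaps in the 13 windows). A match describes the letters and not a bound site, and its relation to a change in level was not tested. At 3 h against vehicle, Fgfr2, with no EGR core, had a log2FC of 0.71. Fgf2, with a core in its single window, had 0.69, and Fgfr3, with a core in both windows, had 0.24. The sequences run 5′ to 3′ on the strand of the gene, with EGR cores and Sp/KLF boxes in capitals in either orientation. The Fgf2 stretch lies within the annotated gene, at chr3:37348570-37348599 (+).
Fgf2: ggaggcgccggGCGTGGGgaggaggcggcg
The upstream Fgfr3 window holds 1 EGR core and 4 Sp/KLF boxes, and the 200 bases of it that lie before the annotated gene, at chr5:33721474-33721673 (+), hold the EGR core, read on the opposite strand, and 2 of the boxes.
Fgfr3: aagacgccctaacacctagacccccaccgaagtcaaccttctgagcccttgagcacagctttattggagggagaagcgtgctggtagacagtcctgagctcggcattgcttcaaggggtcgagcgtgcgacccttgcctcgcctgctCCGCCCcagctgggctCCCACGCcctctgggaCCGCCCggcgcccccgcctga
Frs2, whose level did not pass the test in any comparison, has 2 Sp/KLF boxes and no EGR core in its window, and the part outside its exons covers chr10:117148535-117148724 (-).
Frs2: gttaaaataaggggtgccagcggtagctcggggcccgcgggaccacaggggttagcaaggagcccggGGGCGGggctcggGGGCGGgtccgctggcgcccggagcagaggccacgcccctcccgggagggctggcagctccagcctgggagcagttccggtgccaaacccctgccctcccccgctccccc

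In vehicle cells the receptors Fgfr1 and Fgfr2 were the most abundant of the 10 genes, at 24.8 ± 1.98 and 24.4 ± 3.15 TPM (SD, n = 3), a difference smaller than the spread between cultures. Frs2 followed at 17.4 ± 1.35 TPM and Fgfr3 at 15.4 ± 0.581 TPM, and their cultures did not overlap, with 16.1 TPM in the lowest Frs2 value and 15.97 TPM in the highest Fgfr3 value. The intracellular factor Fgf13 (6.0 ± 0.487 TPM) and the secreted ligand Fgf2 (5.90 ± 0.375 TPM) did not differ beyond their spread, and changed places when levels were taken as counts not divided by length. Fgf18 was at 1.03 ± 0.169 TPM and Klb at 0.210 ± 0.111 TPM. Fgfr4 and Fgf9 were the lowest, at 0.0870 ± 0.0596 and 0.050 ± 0.0469 TPM, which do not differ beyond their spread. These TPM values divide by 1 length per gene, the same in all 9 cultures.

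**Figure D1:**
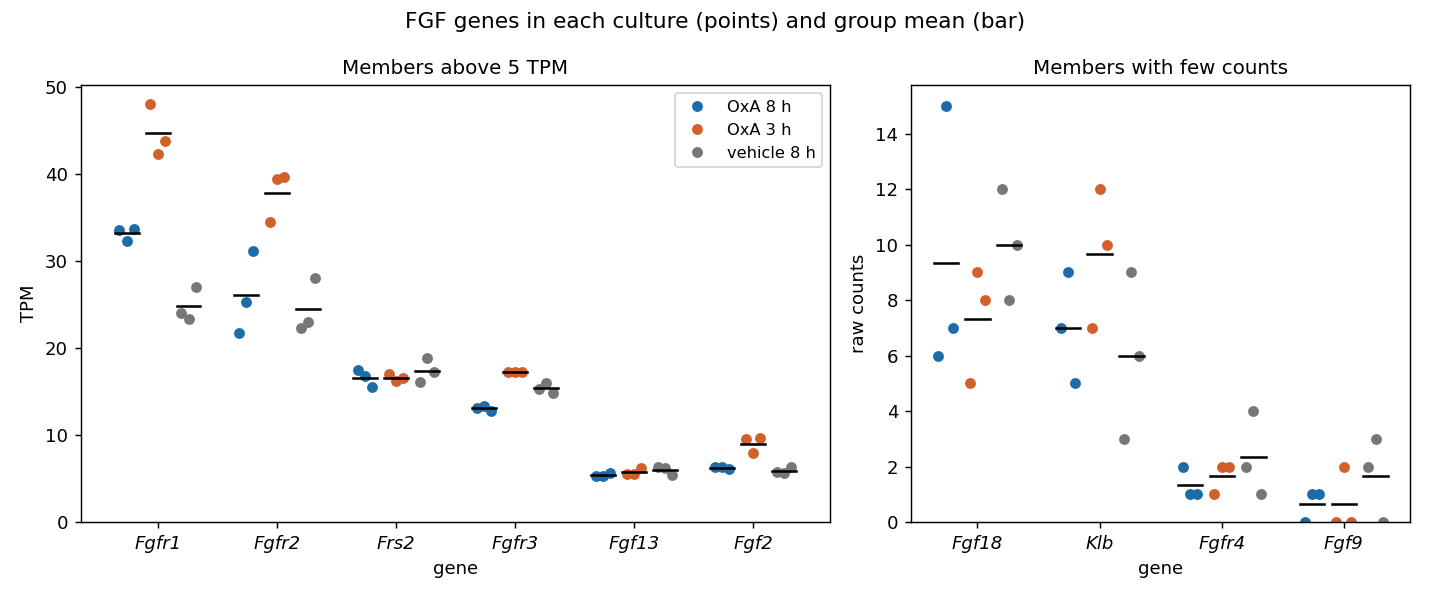
Levels of the 10 FGF genes in each culture, as TPM for the 6 genes above 5 TPM (left) and as raw counts for the 4 genes with 0 to 15 counts in a culture (right). Points are cultures, bars are means of 3, and for each gene OxA 8 h, OxA 3 h and vehicle run left to right: Fgfr1 separates all groups, while the Frs2 groups overlap.

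Genes were tested against each other group with edgeR and called at an adjusted p (Benjamini-Hochberg over all genes tested) under 0.05. The members and the gene lists below were chosen with earlier results of these data known. Their counts beside the shares of all genes are therefore a description and not a test. After 3 h of OxA, 4 of the 6 FGF members that passed the filter on low counts were called higher than in vehicle cells and 0 lower, where 20.2% of all 15352 genes tested were called higher and 18.7% lower. With upper-quartile scaling of the libraries, the split over all genes was 2426 higher and 3719 lower, against 3104 higher and 2869 lower with TMM, and the same number of members, 4, was called higher. After 8 h of OxA, 1 of 7 members tested was called higher than in vehicle cells and 0 lower, where 15.3% and 13.1% of 15407 genes were. At 8 h, 0 of 6 members were called higher than at 3 h and 4 lower, where 13.7% and 14.3% of 15278 genes were. The cultures of the groups compared did not overlap for 4 of 6 members at 3 h, 2 of 7 at 8 h and 4 of 6 between the times, where 48.1%, 41.3% and 40.6% of all genes tested did not. No member changed 2-fold, as 4.17%, 1.86% and 1.83% of all genes did in the 3 comparisons in this order. The median log2FC of the members tested was 0.47 at 3 h, -0.016 at 8 h and -0.43 between the times, beside medians within 0.01 of 0 over all genes.

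Fgfr1 (chr8:25513654-25575718, + strand, GENCODE M21 on GRCm38) encodes the receptor most closely tied to GnRH neuron development. Its level was 33.6, 32.3 and 33.6 TPM in the OxA 8 h cultures, 48.0, 42.3 and 43.8 TPM in the OxA 3 h cultures, and 24.1, 23.3 and 27.0 TPM in the vehicle cultures. The 3 groups did not overlap: every 3 h culture lay above every 8 h culture, and every 8 h culture above every vehicle culture. After 3 h the log2FC against vehicle was 0.93 (SE 0.065, adjusted p = 2.25e-10), a rise of 1.90-fold. After 8 h it was 0.47 (SE 0.059, adjusted p = 1.82e-06), or 1.38-fold, and Fgfr1 was the only member called at both times. Between the times Fgfr1 fell by 0.45 on the log2 scale at 8 h relative to 3 h (SE 0.057, adjusted p = 4.29e-06).

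Fgfr2 encodes the receptor whose splice forms bind FGFs of epithelial and mesenchymal origin. Its level was 21.8, 25.3 and 31.2 TPM in the OxA 8 h cultures, 34.4, 39.4 and 39.7 TPM in the OxA 3 h cultures, and 22.2, 23.0 and 28.0 TPM in the vehicle cultures. All 3 h cultures lay above the others, whereas the 8 h cultures spread over the whole vehicle range and beyond it. Fgfr2 rose after 3 h by a log2FC of 0.71 (SE 0.081, adjusted p = 6.79e-06), or 1.63-fold, and fell by 0.56 at 8 h relative to 3 h (SE 0.12, adjusted p = 0.00884). At 8 h its log2FC against vehicle was 0.14 (95% interval -0.25 to 0.52, adjusted p = 0.588). Over 12 alternatives this value ranged from -0.0071 to 0.25 and its adjusted p from 0.0295 to 0.972. Of these, 1 called Fgfr2 higher, the fit with replicate number as a block. The annotated gene (chr7:130162451-133123350, - strand) includes a far-reaching transcript model that spans 69 other genes, and whether the authors' annotation held that model is not given in the sources used here.

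Fgfr3 (chr5:33721674-33737068, + strand), a receptor of glial precursors and cartilage, moved least at 3 h among Fgfr1, Fgfr2 and Fgfr3. Its level was 13.1, 13.4 and 12.8 TPM in the OxA 8 h cultures, 17.3, 17.2 and 17.3 TPM in the OxA 3 h cultures, and 15.3, 15.97 and 14.8 TPM in the vehicle cultures. The groups did not overlap, with the 8 h cultures the lowest and the 3 h cultures the highest. Fgfr3 rose after 3 h by a log2FC of 0.24 (SE 0.066, adjusted p = 0.00507), or 1.18-fold, and fell by 0.42 at 8 h relative to 3 h (SE 0.067, adjusted p = 6.60e-05). At 8 h the log2FC against vehicle was -0.18 (SE 0.069, 95% interval -0.32 to -0.038), which missed the threshold at an adjusted p of 0.0523. Over 12 alternatives the 8 h difference ranged from -0.21 to -0.16 and its adjusted p from 0.0223 to 0.155. Of these, 3 called Fgfr3 lower, among them the fit with replicate number as a block.

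Fgfr4 (chr13:55152640-55168759, + strand), a receptor best known in liver, had 2, 1 and 1 counts in the OxA 8 h cultures, 1, 2 and 2 in the OxA 3 h cultures, and 2, 4 and 1 in the vehicle cultures. Klb (chr5:65348314-65384007, + strand), the co-receptor for endocrine FGFs, had 7, 9 and 5 counts after 8 h of OxA, 7, 12 and 10 after 3 h, and 3, 9 and 6 in vehicle. Both were below the filter in every comparison. At 3 h the Klb ratio of depth-scaled counts to vehicle was 1.78, from 29 against 18 counts, with a 95% interval of 0.954 to 3.40 that covers counting error only and includes 1. At 8 h the ratio was 1.14 (0.580 to 2.28). For Fgfr4, 5 counts after 3 h against 7 in vehicle gave 0.788 (0.197 to 2.88), so no difference was detectable at this depth for either gene.

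Summed over the receptor genes, Fgfr1 to Fgfr4 reached 72.4 ± 4.70 TPM in OxA 8 h cells, 99.9 ± 0.923 TPM in OxA 3 h cells and 64.7 ± 4.56 TPM in vehicle cells (SD, n = 3 each). Fgfr1 made up 45.9 ± 2.84% of that sum after 8 h, 44.8 ± 2.95% after 3 h and 38.3 ± 0.876% in vehicle. Each OxA culture, with 42.7% or more, lay above each vehicle culture, with 39.0% or less. The Fgfr3 share was 18.2 ± 1.48% after 8 h, 17.3 ± 0.128% after 3 h and 23.9 ± 2.36% in vehicle, and no OxA culture reached the vehicle range. The Fgfr2 share was 35.9 ± 4.20%, 37.9 ± 2.93% and 37.7 ± 2.14% in the OxA 8 h, OxA 3 h and vehicle cells, within the spread of the cultures. Fgfr4 gave at most 0.245% of the sum in any culture. With 3 cultures a group these shares are given as a description, with no test. The sum leaves out Fgfrl1, which was listed with the co-receptors. Fgfrl1 had 31.4 ± 0.826 TPM in OxA 8 h, 36.3 ± 2.58 TPM in OxA 3 h and 37.5 ± 2.09 TPM in vehicle cells. By edgeR it was called lower at 8 h against vehicle (log2FC -0.21, adjusted p = 0.0126) and against OxA 3 h (-0.23, adjusted p = 0.0141).

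**Figure D2:**
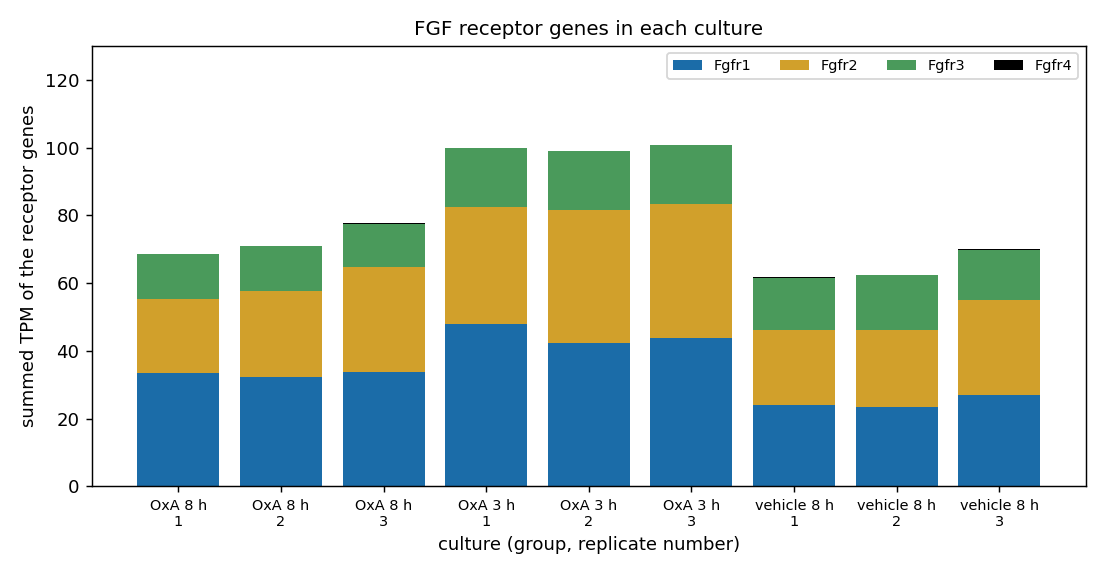
Summed TPM of the 4 FGF receptor genes in each of 9 cultures, stacked by gene, with OxA 8 h, OxA 3 h and vehicle cultures from left to right. The 3 h cultures reach 99.0 to 101 TPM, above the 8 h (68.5 to 77.6 TPM) and vehicle (61.7 to 69.9 TPM) cultures, and Fgfr4 is at the limit of visibility.

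Fgf2 (chr3:37348346-37410108, + strand), or basic FGF, is a secreted ligand of several FGF receptors and a neurotrophic factor. Its level was 6.37, 6.30 and 6.08 TPM in the OxA 8 h cultures, 9.52, 7.93 and 9.64 TPM in the OxA 3 h cultures, and 5.77, 5.60 and 6.32 TPM in the vehicle cultures. The 3 h cultures stood above all others, and the 8 h and vehicle cultures overlapped. Fgf2 rose after 3 h by a log2FC of 0.69 (SE 0.088, adjusted p = 1.08e-06), or 1.61-fold, and fell by 0.55 at 8 h relative to 3 h (SE 0.085, adjusted p = 4.40e-05). At 8 h its log2FC against vehicle was 0.13 (95% interval -0.043 to 0.31, adjusted p = 0.263). The end of Fgf2 overlaps Nudt6 on the opposite strand, which had 16, 12 and 11 counts after 8 h, 15, 5 and 16 after 3 h and 21, 19 and 16 in vehicle, against 288 to 507 counts for Fgf2. Libraries were stranded, but the strand setting of the counting is not given in the sources used here, so reads of the overlap cannot be told apart. In GENCODE, 4 other genes overlapped each of Fgf2 and Fgf13, 1 overlapped each of Fgfr1, Fgfr3 and Fgf9, and 0 overlapped Fgfr4, Fgf18, Frs2 or Klb.

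Fgf13 (chrX:59062145-59568071, - strand) is an FGF homologous factor that stays in the cell and binds voltage-gated sodium channels and microtubules. It had 5.26, 5.36 and 5.65 TPM in the OxA 8 h cultures, 5.58, 5.58 and 6.23 TPM in the OxA 3 h cultures, and 6.33, 6.24 and 5.44 TPM in the vehicle cultures. All groups overlapped. Its log2FC was 0.026 at 3 h (95% interval -0.23 to 0.28, adjusted p = 0.896), -0.10 at 8 h (-0.35 to 0.15, adjusted p = 0.587) and -0.12 at 8 h relative to 3 h (-0.37 to 0.13, adjusted p = 0.512). The sign at 3 h turned with upper-quartile scaling, to -0.034.

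Fgf18 (chr11:33117430-33147400, - strand), a secreted ligand of skeletal growth, had 6, 15 and 7 counts in the OxA 8 h cultures, 5, 9 and 8 in the OxA 3 h cultures, and 12, 8 and 10 in the vehicle cultures. It passed the filter only at 8 h against vehicle, with a log2FC of -0.13 (SE 0.43, adjusted p = 0.853). At 3 h the depth-scaled ratio to vehicle was 0.809 with a counting interval of 0.444 to 1.45. Fgf9 (chr14:58070547-58112720, + strand), a ligand of neurons and gonads, had 0, 1 and 1 counts after 8 h of OxA, 0, 2 and 0 after 3 h, and 2, 3 and 0 in vehicle. Neither ligand allowed a difference to be seen at this depth.

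Frs2 (chr10:117069427-117148534, - strand), the docking protein under the receptors, had 17.5, 16.8 and 15.5 TPM in the OxA 8 h cultures, 17.1, 16.2 and 16.5 TPM in the OxA 3 h cultures, and 16.1, 18.8 and 17.2 TPM in the vehicle cultures. All groups overlapped. Its log2FC was 0.0072 at 3 h (95% interval -0.13 to 0.14, adjusted p = 0.947), -0.016 at 8 h (-0.15 to 0.12, adjusted p = 0.886) and -0.017 at 8 h relative to 3 h (-0.15 to 0.12, adjusted p = 0.881). The intervals leave out changes beyond about 0.15 on the log2 scale, and the sign of these small values turned with upper-quartile scaling at 3 h (-0.053) and between the times (0.0098).

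**Figure D3:**
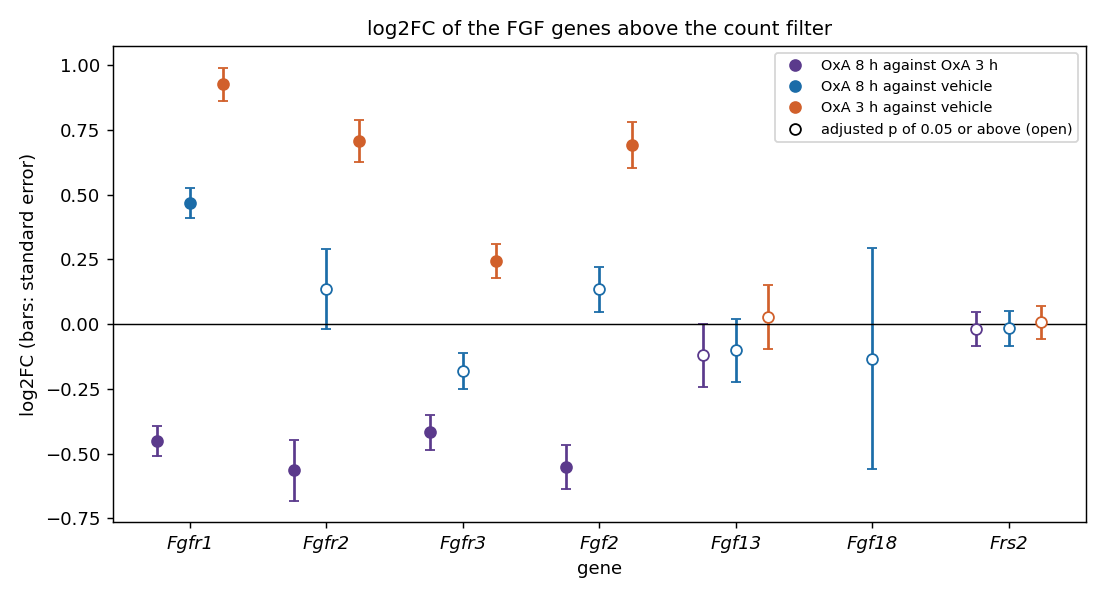
log2FC of the 7 members that passed the count filter in at least 1 comparison, with standard errors as bars, in the order OxA 8 h against OxA 3 h, OxA 8 h against vehicle and OxA 3 h against vehicle. Filled points had an adjusted p under 0.05: Fgfr1, Fgfr2, Fgfr3 and Fgf2 are above 0 at 3 h and below 0 between the times, and Fgfr1 alone is filled at 8 h against vehicle.

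The genes whose profile over the 9 cultures was most like that of each called member were ranked by Pearson's r of log2 CPM (depth-scaled counts) over 11786 genes averaging 50 normalized counts or more, as a description, since the 9 cultures share the treatment. For Fgfr1 these were Plk2, a polo-like kinase, Map3k5, the stress kinase ASK1, and Rufy4, each with r = 0.993. Fgfr2 was closest to Zfp367 (r = 0.993), the splicing factor gene Rbm39 (0.988) and the deubiquitinase gene Usp9x (0.986). The nearest profiles to Fgfr3 were Tsc22d3 (0.992), a glucocorticoid-induced gene also called GILZ, Arhgap35 (0.989) and Maged2 (0.979). Fgf2 went with Hspa5 (0.982), the ER chaperone BiP, Otud7b (0.980) and Kat6a (0.975). Tsc22d3 averaged 479 normalized counts after 8 h, 1043 after 3 h and 682 in vehicle, so like Fgfr3 it was highest at 3 h and lowest at 8 h. No gene was among the 3 nearest of more than 1 member.

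Among 18 other FGF genes, 6 were tested at 3 h and at 8 h, and none was called higher at either time, where 20.2% of all genes tested were at 3 h and 15.3% at 8 h. The counts lower were 2 at 3 h and 1 at 8 h, where 18.7% and 13.1% of all genes were. Fgf11, like Fgf13 an intracellular FGF homologous factor, had 8.43 ± 1.23 TPM in OxA 8 h cells, 6.98 ± 0.422 TPM in OxA 3 h cells and 11.1 ± 0.296 TPM in vehicle cells (SD, n = 3 each). Its log2FC was -0.35 at 8 h (SE 0.10, adjusted p = 0.0129) and -0.59 at 3 h (SE 0.10, adjusted p = 4.82e-05). Fgf1, acidic FGF, was the other gene called lower at 3 h, at 2.36 ± 0.0412 TPM after 3 h and 3.20 ± 0.0811 TPM in vehicle (log2FC -0.36, SE 0.14, adjusted p = 0.0495). The list's count of 2 at 3 h was 1 with DESeq2, without the filter and on leaving out any 1 culture of either group, and the 8 h count of 1 was 0 without OxA 8 h replicate 1 or vehicle replicate 1. Fgf3, Fgf4, Fgf6, Fgf10, Fgf15, Fgf20 and Fgf23 had 0 counts in all 9 cultures.

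Of 16 co-receptor and extracellular FGF binding genes tested, 5 were higher and 1 lower at 3 h, and 5 were higher and 4 lower at 8 h, with median log2FC values of 0.093 and 0.00020. Over all genes tested, 20.2% were higher and 18.7% lower at 3 h, and 15.3% higher and 13.1% lower at 8 h. Flrt3, a membrane protein that binds FGF receptors and promotes their signaling in frog embryos, had 349 ± 35.0 normalized counts after 3 h and 1032 ± 35.0 in vehicle, a log2FC of -1.56 (SE 0.073, adjusted p = 5.13e-14). At 8 h it fell by 1.23 against vehicle (SE 0.070, adjusted p = 3.37e-12). The heparan sulfate proteoglycan genes Sdc4 (syndecan 4) and Gpc1 (glypican 1) rose at both times, Sdc4 by a log2FC of 0.78 at 8 h (SE 0.066) and 0.65 at 3 h (SE 0.050), Gpc1 by 0.58 at 8 h (SE 0.060) and 0.68 at 3 h (SE 0.053), each with an adjusted p of 1.74e-06 or less. Fgfbp1, a secreted carrier of FGFs, had 3, 3 and 9 counts after 8 h and 13, 10 and 15 in vehicle (log2FC -1.35, SE 0.49, adjusted p = 0.0389). These counts are low, and scaled to depth the cultures overlapped. OxA 8 h replicate 3 had 10.1 normalized counts and vehicle replicate 2 had 9.89. The count of 4 lower at 8 h was 2 without OxA 8 h replicate 2 or without vehicle replicate 2, and that of 1 lower at 3 h was 2 without OxA 3 h replicate 2.

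Heparan sulfate enzymes were called higher in 5 of 11 cases at 3 h and in 3 of 11 at 8 h, with none lower, and 4 of 11 were called lower between the times. Over all genes the shares were 20.2% higher at 3 h, 15.3% higher at 8 h and 14.3% lower between the times. Hs6st1, a sulfotransferase that adds sulfate groups needed for FGF receptor binding, had 1396 ± 115 normalized counts after 3 h and 737 ± 22.3 in vehicle (log2FC 0.92, SE 0.063, adjusted p = 3.48e-11), and its log2FC was 0.30 at 8 h (SE 0.061, adjusted p = 0.000534). The polymerase gene Ext1 rose by 0.63 at 3 h (SE 0.055) and 0.19 at 8 h (SE 0.054), and the epimerase gene Glce by 0.49 (SE 0.049) and 0.30 (SE 0.057). Hs3st1 was called at 3 h alone (0.32, SE 0.11, adjusted p = 0.023). With upper-quartile scaling the 3 h count for this list was 3, as it was without vehicle replicate 1. The list's median log2FC was 0.11 at 3 h and 0.14 at 8 h.

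The 25 adaptor and Ras-ERK relay genes were all tested: 8 were higher and 3 lower at 3 h, 6 higher and 3 lower at 8 h, and 2 higher and 6 lower at 8 h relative to 3 h. Of all genes, 20.2% were higher and 18.7% lower at 3 h, 15.3% and 13.1% at 8 h, and 13.7% and 14.3% between the times, so the counts lower at both times and higher between the times were near or under these shares. Shb, an SH2 adaptor that binds FGFR1, was the gene of this list with the largest change, at 1423 ± 83.2 normalized counts after 3 h and 646 ± 31.6 in vehicle (log2FC 1.14, SE 0.061, adjusted p = 6.16e-13), and its log2FC was 0.42 at 8 h (SE 0.064, adjusted p = 2.04e-05). Crk, an adaptor, rose by 0.47 at 3 h (SE 0.045) and 0.34 at 8 h (SE 0.044). Frs3, the paralog of Frs2, had 58.3 ± 11.4 normalized counts after 3 h and 100.3 ± 2.47 in vehicle, a log2FC of -0.78 (SE 0.17, adjusted p = 0.000640). It was higher at 8 h than at 3 h (log2FC 0.60, SE 0.17, adjusted p = 0.011). Cblb, a ubiquitin ligase of receptor kinases, fell by 0.58 at 3 h (SE 0.080, adjusted p = 3.35e-06). With upper-quartile scaling the 3 h counts of this list were 5 higher and 5 lower and the count lower between the times was 3. That count was 1 without OxA 3 h replicate 3, and the count lower at 8 h was 1 without vehicle replicate 2.

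Feedback inhibitors and ETS factors that FGF signaling induces, which ERK induces under other receptors too, were called higher in 8 of 13 cases at 3 h and in 11 of 13 at 8 h, with 6 and 7 of them at 2-fold or more. Of all genes, 20.2% were higher at 3 h and 15.3% at 8 h, and 4.17% and 1.86% changed 2-fold in either direction. The list was chosen with earlier results of these data known, so these shares are set beside it as a description only. The list's median log2FC was 0.71 at 3 h and 1.20 at 8 h. At 8 h relative to 3 h the median was -0.050, with 4 of 13 genes called higher and 3 lower. Of all genes, 13.7% were called higher and 14.3% lower between the times. The 3 lower were Dusp5 (log2FC -1.64), Errfi1 (-1.57) and Spred2 (-0.88). The 4 higher were Spry1 (0.89), Etv4 (0.84), Il17rd (0.73) and Spred3 (0.44). Errfi1, an inhibitor of EGF receptor kinases, rose by a log2FC of 2.28 at 8 h (SE 0.12) and 3.85 at 3 h (SE 0.092), and the ERK phosphatase gene Dusp5 by 1.87 (SE 0.12) and 3.51 (SE 0.11). Spred2, which blocks Ras activation, rose by 1.69 (SE 0.096) and 2.58 (SE 0.11), and Phlda1 by 2.09 (SE 0.35) and 2.81 (SE 0.24). Dusp6, the ERK phosphatase used as a reporter of FGF signaling, had 744 ± 84.3 normalized counts after 3 h and 184 ± 65.0 in vehicle (log2FC 2.02, SE 0.23, adjusted p = 0.00115), and its log2FC was 1.60 at 8 h (SE 0.29, adjusted p = 0.0156). Spry4, a sprouty inhibitor, rose by 1.48 at 8 h (SE 0.18) and 1.64 at 3 h (SE 0.23). Etv4, an ETS factor downstream of FGF, was called at 8 h (log2FC 1.20, SE 0.25, adjusted p = 0.000748) and had a log2FC of 0.37 at 3 h (adjusted p = 0.242). Of all genes, 18.7% were called lower at 3 h. The 2 genes of this list called lower at 3 h, chosen after their values were seen, were Spry1 (-0.46, adjusted p = 0.00209) and Il17rd (-0.39, adjusted p = 0.0358). This count was 1 with DESeq2 and without any 1 of OxA 3 h replicates 1 and 3 and vehicle replicates 1 and 3. Spry1 and Il17rd were both called higher at 8 h than at 3 h.

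**Figure D4:**
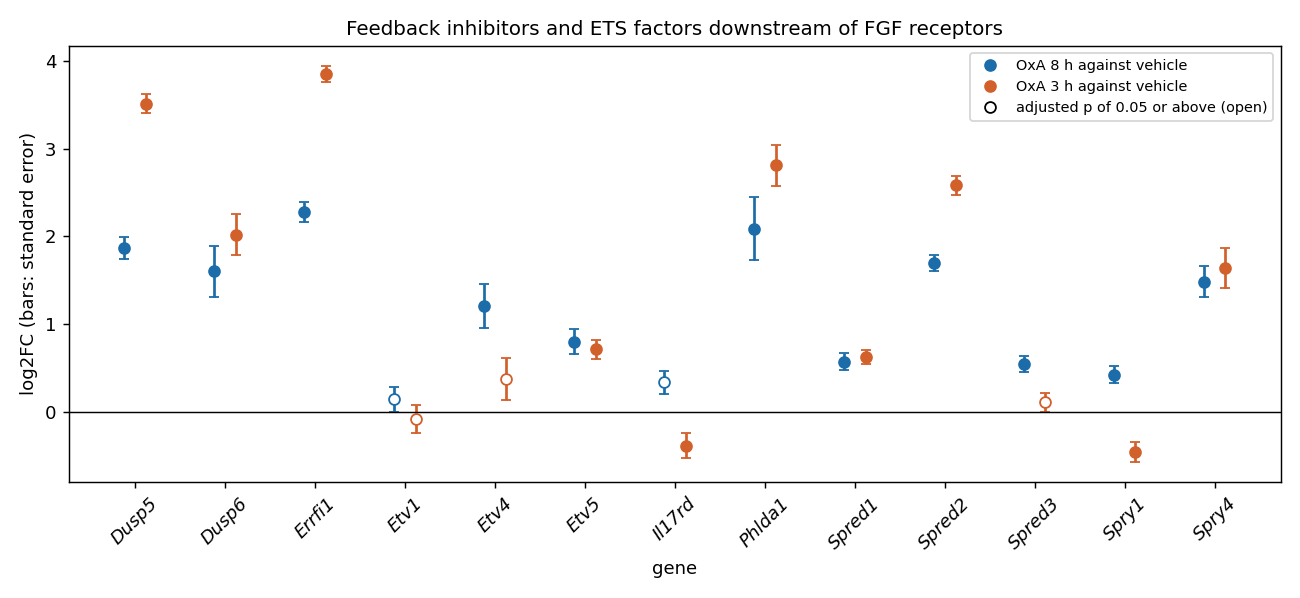
log2FC against vehicle of the 13 feedback inhibitor and ETS factor genes tested, OxA 8 h left of OxA 3 h for each gene, with standard errors as bars. Filled points had an adjusted p under 0.05; Errfi1 and Dusp5 are higher at 3 h than at 8 h, and Etv4 is filled at 8 h alone.

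Sodium channel subunits and the partners of FGF homologous factors, the group that Fgf13 and Fgf11 act on, were called lower in 4 of 6 cases at 3 h and in 3 of 5 at 8 h, with none higher, where 18.7% and 13.1% of all genes were lower. The list's median log2FC was -0.51 at 3 h and -0.49 at 8 h. Scn9a, a voltage-gated sodium channel gene, had 39.6 ± 3.42 normalized counts after 3 h and 98.6 ± 9.77 in vehicle, a log2FC of -1.31 (SE 0.17, adjusted p = 1.84e-06). At 8 h it fell by 1.09 (SE 0.16, adjusted p = 1.50e-05). Scn2a1 and Scn3a fell at 3 h by 0.61 (SE 0.13) and 0.58 (SE 0.17), and had log2FC values of -0.079 and -0.23 at 8 h that did not pass the test. Mapk8ip2, a scaffold that binds FGF homologous factors, fell by 0.61 at 8 h (SE 0.13, adjusted p = 0.000605), with -0.19 at 3 h (adjusted p = 0.234). Scn8a had the highest level of this list, with means of 11.9 TPM in OxA 8 h, 12.1 TPM in OxA 3 h and 17.3 TPM in vehicle cells. By edgeR it was called lower against vehicle at 3 h (log2FC -0.437, adjusted p = 0.000506) and at 8 h (-0.489, adjusted p = 0.00952).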

How the data were processed

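RNA-Seq counts of 9 cultures were analysed, 3 a group. The authors prepared rRNA-depleted stranded libraries, trimmed adaptors with Trimmomatic (version 0.3 in the submitters' notes), mapped the trimmed reads with STAR 2.5.2a on mm10, and obtained gene counts from HTSeq 0.6.0. The deposited raw counts are whole numbers per gene symbol, not normalized, and were the values tested. The deposited TPM values are the authors' own, with gene lengths not given in the sources used here, and were used for levels. The authors' normalized counts and comparison tables (DESeq2 1.10.1, with log2 fold changes and p-values) were not used.

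The tests used edgeR 4.0.16, under R 4.3.3 and beside limma 3.58.1, on the 2 groups compared, filterByExpr with a minimum count of 10, TMM, robust quasi-likelihood fits, glmQLFTest, and Benjamini-Hochberg adjustment over every gene left by the filter. Calls required an adjusted p below 0.05 and, where 2-fold is stated, a log2FC beyond 1 in size. Group means beside a test are normalized counts from that fit. Intervals for members below the filter are exact at 95% and cover counting error only. Alternatives used DESeq2 1.42.0, other scaling, no filter, all 9 samples, a replicate block and leaving out each culture. The fits were tested on simulated data. Depth is in the report, and replicates differed by more than sampling noise. The pathway genes named were those called at 2-fold and, for lists with fewer than 4 of these, the largest called changes up to 4 a list. Fgfrl1 and Scn8a were added for their level. The members and lists were chosen with earlier results of these data known. Positions are from GENCODE M21 (GRCm38, UCSC's mm10) and promoters from RefSeq (GRCm38.p6).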

Additional observations from a re-analysis of the deposited data

Results flagged for a closer look

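The change against vehicle differed between the 2 times for 4 members, tested directly as OxA 8 h against OxA 3 h, in which the shared vehicle cultures cancel. Fgfr2 had a log2FC of -0.56, Fgf2 of -0.55, Fgfr1 of -0.45 and Fgfr3 of -0.42 at 8 h relative to 3 h, each lower in 3 of 3 OxA 8 h cultures than in any OxA 3 h culture. Of all genes tested, 14.3% were called lower in this comparison, and for 40.6% the cultures did not overlap in either direction. For Fgfr3 the direction against vehicle also turned between the times, with 0.24 at 3 h, which was called, and -0.18 at 8 h, which was not (adjusted p = 0.0523 by edgeR). The cultures of the 2 times also differ in how long the fresh medium had been on the cells, and that cannot be told apart from the time on OxA.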

How the results depend on the processing

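The 9 calls among members (4 at 3 h, 1 at 8 h, 4 between the times) kept their direction and stayed called in all 108 alternative fits, with log2FC ranges at 3 h of 0.85 to 1.00 for Fgfr1, 0.65 to 0.82 for Fgfr2, 0.63 to 0.77 for Fgf2 and 0.18 to 0.26 for Fgfr3. Of 117 fits of uncalled members, 100 gave the same result. The count of members called lower at 8 h was 1 (Fgfr3), not 0, with upper-quartile scaling (-0.21), with all 9 samples in 1 fit (-0.18) and with the replicate block (-0.18). Signs turned for small uncalled values: upper-quartile scaling gave -0.034 for Fgf13 and -0.053 for Frs2 at 3 h and 0.0098 for Frs2 between the times. On leaving out 1 culture at a time, log2FC values that changed sign ranged from -0.035 to 0.076 for Fgf13 at 3 h, -0.036 to 0.051 for Frs2 at 3 h, -0.072 to 0.034 for Frs2 at 8 h, -0.069 to 0.019 for Frs2 between the times, -0.25 to 0.15 for Fgf18 at 8 h (positive without OxA 8 h replicate 1) and -0.0071 to 0.25 for Fgfr2 at 8 h (negative without OxA 8 h replicate 3). Where no value shows it, the cause was not tested. Over the lists, 53 of 432 counts under alternatives moved by more than 1.5 times.

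The replicate numbers of the titles were tried as a block. Deviations of same-numbered cultures correlated at 0.0076 to 0.16 (mean 0.075) and those of different numbers at -0.12 to 0.070 (mean -0.038). Of 9 cultures, 3 correlated best with their own number in both other groups. These values do not settle whether the numbers mark repeats of the experiment. The fits given above did not take the numbers as pairs, and the 8 h calls of Fgfr2 and Fgfr3 differ with that choice. With the block, members called higher at 8 h were 2 in place of 1 (Fgfr2 added, log2FC 0.14, adjusted p = 0.0295 by edgeR), Fgfr3 was called lower at -0.18 (adjusted p = 0.0243), and the genes called were 6500 at 3 h, 5558 at 8 h and 5348 between the times. Low counts limit Fgfr4, Fgf9, Fgf18 and Klb.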
